A study of Mus musculus with 27 samples.

Results

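The interferon-induced genes examined here are 43 transcripts of mouse visceral fat, chosen by gene name as genes that interferons switch on in many cell types, and read in every library of a weight-cycling experiment. All 43 were among the 43460 gene names of the deposited counts, and all 43 passed the filter on low counts that left 17821 names. They were divided by role into 10 interferon-induced GTPases (Gbp2, Gbp3, Gbp5, Gbp6, Gbp7, Irgm1, Irgm2, Igtp, Iigp1 and Ifi47), 9 Oas, Ifit and Mx genes (Oas1a, Oas2, Oasl1, Oasl2, Ifit1, Ifit2, Ifit3, Mx1 and Mx2), 9 other effectors (Isg15, Usp18, Rsad2, Ifi44, Bst2, Ifitm3, Zbp1, Xaf1 and Parp14), 3 RNA sensors (Ifih1, Ddx58 and Dhx58), 5 transcription factors (Irf1, Irf7, Irf9, Stat2 and Nlrc5), 3 genes of antigen processing (Tap1, Psmb8 and Psmb9), 2 chemokines (Cxcl9 and Cxcl10) and 2 serpins (Serpina3f and Serpina3g). The name Gbp5 in the deposited table carries the Ensembl identifier ENSMUSG00000040264, which the GENCODE annotation of GRCm38 names Gbp2b, and the name Gbp6 carries ENSMUSG00000079362, a gene model named Gm43302 there whose exons overlap those of Gbp6 and Gbp10. Both are reported under their deposited names.

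The tissue was epididymal white adipose tissue, the fat pad beside the testis, of C57BL/6N mice, with 3 libraries in each of 9 groups. The gain8 mice had a high-fat diet, with 60% of energy from fat, for 8 weeks and were 13 weeks old, and control8 mice of that age had normal diet. The loss mice had those 8 weeks followed by 4 weeks of normal diet and were 17 weeks old, beside control12 mice kept on normal diet. At 21 weeks of age there were 4 groups. Regain mice had 8 weeks of high-fat diet, 4 of normal diet and 4 of high-fat diet again. Maintenance mice had 8 weeks of high-fat diet and then 8 of normal diet, gain4 mice had the high-fat diet only in the last 4 of the 16 weeks, and control16 mice had normal diet throughout. Mice of the initial group were 5 weeks old, before any diet period. Nothing in the labels says that the 3 libraries of a group come from separate mice, and p-values therefore cover only the spread among these libraries, which may be technical.

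Interferons act through cell-surface receptors that send transcription factors to the nucleus. Type I interferons act through Stat2 and Irf9, which bind as part of a complex to the interferon-stimulated response element (ISRE) of genes such as Oas, Ifit and Mx, whose products recognise or block viral RNA and virus particles. Interferon gamma, made mainly by T cells and natural killer (NK) cells, acts through the gamma-activated site (GAS) and induces Irf1, and the guanylate-binding proteins (Gbp) and immunity-related GTPases (IRG), which attack the vacuoles of intracellular microbes, respond strongly to it. Most of these genes respond to both kinds of interferon, so a gene's name does not identify the interferon. In obese visceral fat, T cells and macrophages accumulate among the adipocytes.

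The 250 bases before the transcript start are shown for 3 GTPases, 2 genes of the Oas and Ifit families, a chemokine and Irf1 as examples of the main roles. The sequences are RefSeq promoter windows of build GRCm38.p6, written 5′ to 3′ on the strand of the gene. Capitals mark matches, on either strand, to the ISRE core (TTTC, any 2 bases, and TTTC again) or the GAS core (TTCNNNGAA). The Gbp2 window lies at chr3:142620413-142620662 (+ strand), Igtp at chr11:58199306-58199555 (+), Irgm2 at chr11:58214727-58214976 (+), Oas1a at chr5:120907526-120907775 (- strand), Ifit1 at chr19:34640639-34640888 (+), Cxcl10 at chr5:92348890-92349139 (-) and Irf1 at chr11:53769764-53770013 (+).
Gbp2: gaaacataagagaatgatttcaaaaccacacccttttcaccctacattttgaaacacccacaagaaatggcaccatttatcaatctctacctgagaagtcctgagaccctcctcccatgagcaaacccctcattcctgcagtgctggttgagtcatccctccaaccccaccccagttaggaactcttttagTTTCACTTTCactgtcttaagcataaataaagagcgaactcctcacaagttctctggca
Igtp: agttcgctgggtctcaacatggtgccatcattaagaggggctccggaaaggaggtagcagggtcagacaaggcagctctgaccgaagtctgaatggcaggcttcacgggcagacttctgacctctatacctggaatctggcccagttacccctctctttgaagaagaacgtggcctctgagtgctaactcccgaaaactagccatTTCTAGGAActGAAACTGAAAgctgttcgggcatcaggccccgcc
Irgm2: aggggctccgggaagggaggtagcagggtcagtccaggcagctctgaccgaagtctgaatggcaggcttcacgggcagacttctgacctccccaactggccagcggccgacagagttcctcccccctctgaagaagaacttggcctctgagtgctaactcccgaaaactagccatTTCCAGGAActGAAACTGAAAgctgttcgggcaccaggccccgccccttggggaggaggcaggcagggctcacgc
Oas1a: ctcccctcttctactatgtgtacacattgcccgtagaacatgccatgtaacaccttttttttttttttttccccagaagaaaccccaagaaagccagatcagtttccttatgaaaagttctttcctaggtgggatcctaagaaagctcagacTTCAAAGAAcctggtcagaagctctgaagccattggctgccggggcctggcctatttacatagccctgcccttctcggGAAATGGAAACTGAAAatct
Ifit1: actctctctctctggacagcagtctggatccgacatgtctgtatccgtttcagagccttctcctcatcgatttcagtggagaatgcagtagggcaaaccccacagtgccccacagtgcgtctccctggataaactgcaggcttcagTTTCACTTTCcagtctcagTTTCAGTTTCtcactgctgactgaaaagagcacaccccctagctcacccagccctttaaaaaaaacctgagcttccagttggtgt
Cxcl10: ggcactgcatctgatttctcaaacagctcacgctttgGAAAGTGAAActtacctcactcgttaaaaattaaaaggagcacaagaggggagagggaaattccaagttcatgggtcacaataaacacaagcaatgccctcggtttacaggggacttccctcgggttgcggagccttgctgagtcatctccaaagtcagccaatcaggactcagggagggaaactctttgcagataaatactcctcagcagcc
Irf1: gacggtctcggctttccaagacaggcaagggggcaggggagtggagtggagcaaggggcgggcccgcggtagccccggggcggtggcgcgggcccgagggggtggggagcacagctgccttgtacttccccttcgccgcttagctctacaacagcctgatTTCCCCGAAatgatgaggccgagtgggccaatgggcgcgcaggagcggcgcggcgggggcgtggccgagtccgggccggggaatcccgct

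In Igtp and Irgm2, neighbouring IRG genes, a GAS core stood just before an ISRE core, and 96 of the 100 bases around that ISRE core were identical between them. Oas1a had a GAS core and, near its start, 2 ISRE cores that overlap each other, and Ifit1 had 2 separate ISRE cores. Of the 43 members, 32 matched a RefSeq window and 11 did not. An ISRE core occurred in the windows of 17 of the 32, and in 3.44% of all 32851 windows of 300 bases. Among the GTPases with a window it occurred in 6 of 7 (Gbp2, Gbp3, Gbp7, Igtp, Irgm1 and Irgm2), and among Oas, Ifit and Mx genes in 3 of 6 (Oas1a, Ifit1 and Ifit3). A GAS core occurred in 11 of the 32 (Gbp7, Igtp, Irgm2, Oas1a, Ifit2, Bst2, Ifitm3, Irf1, Psmb8, Serpina3f and Serpina3g), against 8.3% of all windows. In Bst2 and Ifitm3 a match to each motif overlapped the other. These are matches of letters and not measured binding sites.

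Libraries held 26479773 to 32728594 counts. Levels are given in CPM, the count scaled to library size by TMM factors. Each log2 fold change stands with its SE and comes from a quasi-likelihood model of all 27 libraries in edgeR, in which a gene is called at a Benjamini-Hochberg adjusted p under 0.05 over the 17821 names. An exact permutation test of 3 libraries against 3 cannot give a p under 0.1. The 8 adipocyte markers summed to 8764 to 59600 CPM per library, so the labelled tissue's own markers were abundant throughout. Maintenance library 3 stood apart in liver markers. The sum of 12 of them was 9075 CPM there and 40.7 to 8099 CPM in the other 26 libraries, where Cyp2e1 made up nearly all of the high sums. The other 11 markers, Alb at 5233 CPM among them, summed to 7862 CPM in maintenance library 3 and to 8.06 to 129 CPM elsewhere. Call counts of both maintenance comparisons are therefore also given without it. Lars2 exceeded 1000 CPM in some libraries of every group, regain libraries 2 and 3 among them but not regain library 1. These are bulk samples, in which fewer cells of a type and less RNA per cell cannot be told apart.

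By the authors' FPKM, which divide by transcript length and so allow genes to be compared, the most abundant members over all libraries were Ifitm3, which blocks virus entry, at a mean of 205 FPKM, and Bst2, which tethers virus particles, at 73.6 FPKM. Gbp2 followed at 37.6 FPKM and Cxcl9 at 21.9 FPKM. The GTPases ranged from 3.11 FPKM (Gbp5) to 37.6 FPKM (Gbp2). Oas, Ifit and Mx genes ranged from 1.05 FPKM (Mx1) to 12.7 FPKM (Ifit3), overlapping the GTPases. Mx2, typed as a polymorphic pseudogene in the deposited counts, has no FPKM value. The lowest mean belonged to Ifi44, at 0.726 FPKM.

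The GTPases varied most within the regain group. The group mean of their mean log2 CPM was 6.15 ± 1.49 in regain and ran from 4.38 ± 0.23 (initial) to 5.02 ± 0.22 (control16) in the other groups (SD, n = 3 each). The mean log2 CPM of the 10 genes was 6.18, 4.65 and 7.63 in regain libraries 1, 2 and 3, against 5.26, 4.98 and 4.82 in control16 libraries. It was 4.31, 4.31 and 4.89 in maintenance libraries and 4.54, 4.74 and 4.51 in gain4 libraries. Regain libraries 1 and 3 lay above every other library of the series in this mean, and regain library 2 lay below all 3 control16 libraries. Before 21 weeks the highest was gain8 library 2, at 5.45, with the other gain8 libraries at 4.99 and 4.51 against 5.12, 5.23 and 4.67 in control8.

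**Figure D1:**
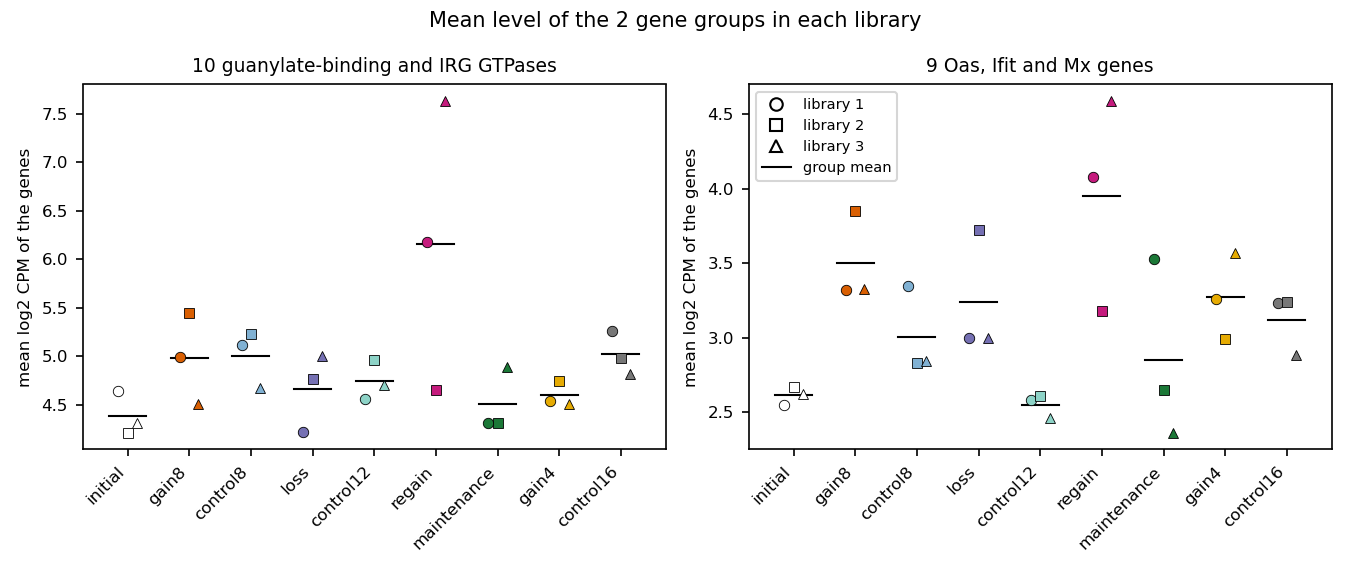
Mean log2 CPM of the 10 GTPases (left) and of the 9 Oas, Ifit and Mx genes (right) in each of the 27 libraries, by group; markers are libraries and bars are group means. Regain libraries 1 and 3 stand at 6.18 and 7.63 on the left, above the other groups, while on the right regain library 2, at 3.18, lies within the control16 range of 2.88 to 3.24.

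Of the 10 GTPases, 9 were called higher in regain than in control16, and Gbp7 was not, against 12.5% of all genes called higher. Without regain library 3, and in a model of the 2 groups alone, 0 of the 10 were called. Gbp2, the most abundant of them, had 185, 73.2 and 472 CPM in regain libraries 1, 2 and 3, against 85.1, 71.8 and 90.0 CPM in control16 libraries. Regain libraries 1 and 3 lay above control16 and library 2 lay inside its range, and the log2 fold change was 1.56 ± 0.38 (adjusted p = 0.00607). Iigp1, an IRG protein that coats parasite vacuoles, had 113, 24.8 and 539 CPM in regain libraries and 65.3, 37.8 and 35.1 CPM in control16 libraries. Its regain values spanned both sides of control16, with a log2 fold change of 2.29 ± 0.71 (adjusted p = 0.0254).

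Igtp, which regulates the other IRG proteins, had 76.2, 17.0 and 222 CPM in regain libraries and 32.0, 25 and 23.5 CPM in control16 libraries, with a log2 fold change of 1.97 ± 0.54 (adjusted p = 0.0126). Regain library 2 was again below all 3 controls. The deposited Gbp6 had the largest change of the guanylate-binding genes, with 122, 28.2 and 362 CPM in regain libraries against 29.7, 23.9 and 37.9 CPM in control16 libraries. Its log2 fold change was 2.49 ± 0.59 (adjusted p = 0.00476), although reads over the overlapping Gbp6 and Gbp10 models may not be separated or may be missing from its count. Gbp7, the GTPase not called, had 61.9, 33.3 and 118 CPM in regain libraries and 63.0, 58.4 and 37.2 CPM in control16 libraries (log2 fold change 0.43 ± 0.33, adjusted p = 0.377). The remaining called GTPases, Gbp3, Gbp5, Irgm1, Irgm2 and Ifi47, had log2 fold changes of 1.20 (Irgm1) to 1.78 (Ifi47). In 0 of the 10 GTPases did the regain libraries all lie above control16, against 23.1% of all genes.

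Of the 9 Oas, Ifit and Mx genes, 3 were called higher in regain than in control16: Oas1a, Oasl1 and Ifit3. Oas1a, which makes the second messenger that activates RNase L, had 25.1, 14.0 and 33.5 CPM in regain libraries, against 8.20, 6.86 and 4.80 CPM in control16 libraries. All regain values lay above all control16 values, and the log2 fold change was 1.87 ± 0.36 (adjusted p = 0.000947). Oasl1, which restrains translation of Irf7 in mice, had 14.0, 9.22 and 19.5 CPM in regain libraries and 3.97, 3.11 and 2.13 CPM in control16 libraries. The groups did not overlap, with a log2 fold change of 2.21 ± 0.38 (adjusted p = 0.000305). Ifit3, an Ifit family protein that acts with Ifit1 on viral RNA, had 39.4, 16.9 and 55.1 CPM in regain libraries and 21.4, 19 and 17.5 CPM in control16 libraries. Regain library 2 was below the controls, and the call (log2 fold change 0.94 ± 0.32, adjusted p = 0.0402) was lost when any control16 library or regain library 1 or 3 was left out.

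The other 6 genes of these families were not called. Oasl2, their most abundant by CPM, had 46.9, 19.7 and 69.2 CPM in regain libraries and 34.6, 26.3 and 23.7 CPM in control16 libraries (log2 fold change 0.68 ± 0.41, adjusted p = 0.248). Mx1, a gene of the dynamin-like family, had 7.19, 3.14 and 12.1 CPM in regain libraries and 2.17, 3.86 and 3.14 CPM in control16 libraries (log2 fold change 1.29 ± 0.54, adjusted p = 0.0905). Oas2 had 18.2, 13.6 and 24.6 CPM in regain libraries against 20.7, 19.9 and 21.4 CPM in control16 libraries. Oas1a has near-identical neighbours in the Oas1 cluster, so its counts are uncertain to the extent that reads were shared between them.

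Set side by side, the median log2 fold change of regain over control16 was 1.66 for the GTPases and 0.68 for Oas, Ifit and Mx genes, against -0.015 over all 17821 genes. The mean log2 CPM of the GTPases less that of Oas, Ifit and Mx genes was 2.10, 1.47 and 3.04 in regain libraries 1, 2 and 3, against 2.03, 1.74 and 1.93 in control16 libraries. Regain libraries 3 and 1 lay above the control16 range, library 1 by little, and library 2 lay below it. Averaged over libraries, the GTPases were 1.13 higher in regain than in control16 and Oas, Ifit and Mx genes 0.83 higher on the log2 scale, a difference of 0.31 between the families that turned to -0.11 without regain library 3.

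In the other diet groups the GTPases were, on average, lower relative to Oas, Ifit and Mx genes than in the matched controls. The mean log2 CPM of the GTPases differed by -0.02 between gain8 and control8, while that of Oas, Ifit and Mx genes differed by 0.49. In loss against control12 the values were -0.08 and 0.69, in maintenance against control16 -0.52 and -0.27, and in gain4 against control16 -0.42 and 0.16. The maintenance difference between families, -0.25, was 0.19 without maintenance library 1, and -0.68 to -0.18 with each other library left out. These means are descriptions with no test, and the comparisons at 21 weeks share the same control16 libraries.

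**Figure D2:**
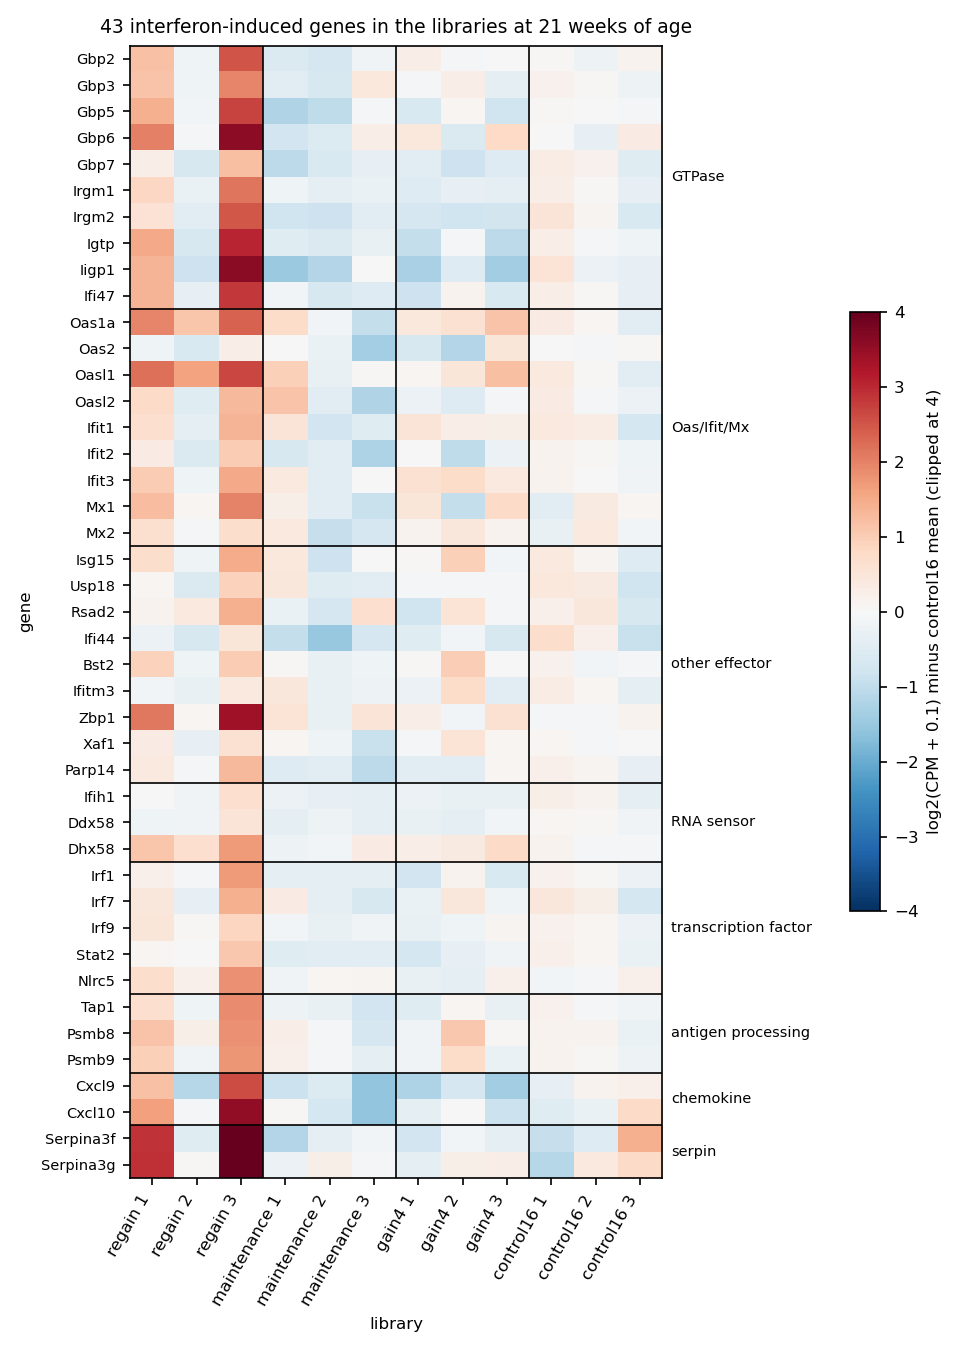
Level of each of the 43 genes in the 12 libraries at 21 weeks, as log2(CPM + 0.1) minus the control16 mean and clipped at 4, with genes by role in rows and regain, maintenance, gain4 and control16 libraries in columns. Regain library 3 is red for nearly all genes and regain library 1 for most, while regain library 2 is mostly pale or blue, with Oas1a, Oasl1 and Dhx58 among the red cells.

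Among the 3 RNA sensors, Dhx58 was called higher in regain, and Ddx58 and Ifih1 were not. Dhx58 encodes the LGP2 protein, which regulates the sensors encoded by the others. It had 19.7, 14.6 and 29.5 CPM in regain libraries and 9.92, 8.70 and 8.55 CPM in control16 libraries, with no overlap (log2 fold change 1.23 ± 0.21, adjusted p = 0.000337). Ddx58 encodes RIG-I and had 33.0, 33.7 and 52.8 CPM in regain libraries against 39.4, 38.6 and 33.3 CPM in control16 libraries. Ifih1 encodes MDA5 and had 31.8, 29.4 and 52.3 CPM in regain libraries against 38.6, 35.7 and 24.9 CPM in control16 libraries. In both of these, regain library 3 stood above the controls and the other regain libraries within or below their range.

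Of the transcription factors, Irf9, the DNA-binding partner of Stat2, and Nlrc5, the transactivator of MHC class I genes, were called higher. Nlrc5 had 51.1, 36.4 and 113 CPM in regain libraries against 29.3, 29.6 and 36.2 CPM in control16 libraries (log2 fold change 1.08 ± 0.28, adjusted p = 0.00835). The groups did not overlap, though regain library 2 exceeded the highest control by little. Irf1, which interferon gamma induces strongly, had 66.1, 54.9 and 184 CPM in regain libraries and 63.4, 59.3 and 48.8 CPM in control16 libraries, so that library 3 stood apart, and was not called (log2 fold change 0.83 ± 0.33, adjusted p = 0.0784). Stat2 had 45.3, 43.6 and 90.8 CPM in regain libraries and 49.7, 45.2 and 35.5 CPM in control16 libraries. The log2 fold change of Irf9 was 0.50 ± 0.17 (adjusted p = 0.0415). Neither Irf9 nor Nlrc5 was called without regain library 3 or in a model of the 2 groups alone. Irf7, the factor that amplifies type I interferon, was not called with all libraries.

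All 3 genes of antigen processing were called higher in regain than in control16 (12.5% of all genes), and 0 of 3 without regain library 3 or in a model of the 2 groups alone. Psmb8, a catalytic subunit of the immunoproteasome, had 100, 52.5 and 161 CPM in regain libraries and 49.5, 49.3 and 37.5 CPM in control16 libraries, with no overlap (log2 fold change 1.20 ± 0.32, adjusted p = 0.0111). Tap1, a subunit of the peptide transporter into the endoplasmic reticulum, had 74.6, 41.5 and 172 CPM in regain libraries and 52.8, 44.6 and 42.6 CPM in control16 libraries. Regain library 2 was below the controls, and the log2 fold change was 1.04 ± 0.33 (adjusted p = 0.0294). Psmb9 had a log2 fold change of 1.05 ± 0.34 (adjusted p = 0.0298). Tap1 and Psmb9 lie head to head and their exons overlap on opposite strands, so reads of the pair may not be separated.

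The chemokines Cxcl9 and Cxcl10 attract T cells through the receptor Cxcr3. Cxcl9 had 142, 28.7 and 381 CPM in regain libraries against 50.2, 69.0 and 71.7 CPM in control16 libraries. Regain library 2 was below all controls and the other regain libraries above them, and Cxcl9 was not called (log2 fold change 1.53 ± 0.59, adjusted p = 0.0699). Cxcl10 had 11.2, 3.36 and 41.8 CPM in regain libraries and 2.47, 2.87 and 5.98 CPM in control16 libraries, and was called (log2 fold change 2.31 ± 0.69, adjusted p = 0.0196), but not without regain library 3 or in a model of the 2 groups alone.

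The serpins had the largest fold changes of all members, and neither was called without regain library 3 or in a model of the 2 groups alone. Serpina3g, an intracellular inhibitor of cathepsins in T cells and other cells, had 28.2, 3.76 and 108 CPM in regain libraries against 1.57, 4.78 and 6.18 CPM in control16 libraries. Library 2 was inside the control range, and the log2 fold change was 3.48 ± 0.82 (adjusted p = 0.0045). Serpina3f, its neighbour and close paralog, had 5.99, 0.493 and 36.1 CPM in regain libraries and 0.337, 0.478 and 2.09 CPM in control16 libraries (log2 fold change 3.86 ± 1.01, adjusted p = 0.0091). Reads of the paralogs may not be separated.

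Among the other effectors only Zbp1 was called. Zbp1, a sensor of Z-form nucleic acid that can start cell death, had 23.8, 5.80 and 58.8 CPM in regain libraries against 5.20, 5.19 and 6.12 CPM in control16 libraries (log2 fold change 2.42 ± 0.51, adjusted p = 0.00173). Regain libraries 1 and 3 were above all controls and library 2 among them. Ifitm3 had 137, 120 and 196 CPM in regain libraries and 182, 158 and 115 CPM in control16 libraries, with a log2 fold change of -0.01 ± 0.25. Parp14, an ADP-ribosyltransferase, had 106, 76.2 and 197 CPM in regain libraries and 92.7, 86.9 and 64.5 CPM in control16 libraries, and was not called (adjusted p = 0.0665). Isg15, Usp18, Rsad2, Ifi44, Bst2 and Xaf1 were not called either, with log2 fold changes of -0.20 (Ifi44) to 0.80 (Isg15).

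Over all roles, 22 members were called higher in regain than in control16 and 0 lower, against 12.5% of all genes called higher. The median log2 fold change of the 43 was 1.04, and 0.35 without regain library 3. The regain libraries all lay above all control16 libraries in 5 members (Oas1a, Oasl1, Dhx58, Nlrc5 and Psmb8), while 23.1% of all genes were separated in this way.

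The 3 regain libraries differed from each other in the same order in nearly all members. Library 3 was above library 1, and library 1 above library 2, in 41 of the 43, all but Rsad2 and Ddx58, while 11.1% of all genes had that order. In 39 of the 43 the highest of the 27 libraries was regain library 3, all but Oas2, Mx2, Ifi44 and Ifitm3. Regain library 3 was above all 3 control16 libraries in 42 members (all but Ifi44; 37.4% of all genes), library 1 in 33 (36.0% of all genes), and library 2 in 5 (34.5% of all genes). Library 2 lay below all 3 control16 libraries in 13 members (32.7% of all genes), including Gbp5, Gbp7, Igtp, Iigp1, Ifi47, Oas2, Oasl2, Ifit2, Ifit3 and Cxcl9.

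The gap between the regain libraries differed by family. The level in library 3 was 3.55 (Gbp7) to 21.7 (Iigp1) times that in library 2 for the GTPases and 1.73 (Mx2) to 3.85 (Mx1) times for Oas, Ifit and Mx genes. All but Gbp7 of the GTPases thus had a larger ratio than any Oas, Ifit or Mx gene. The ratio was 73.3 for Serpina3f, 28.7 for Serpina3g, 13.3 for Cxcl9, 12.4 for Cxcl10 and 10.2 for Zbp1. It was lowest for Ddx58, at 1.57, and Ifitm3, at 1.64.

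**Figure D3:**
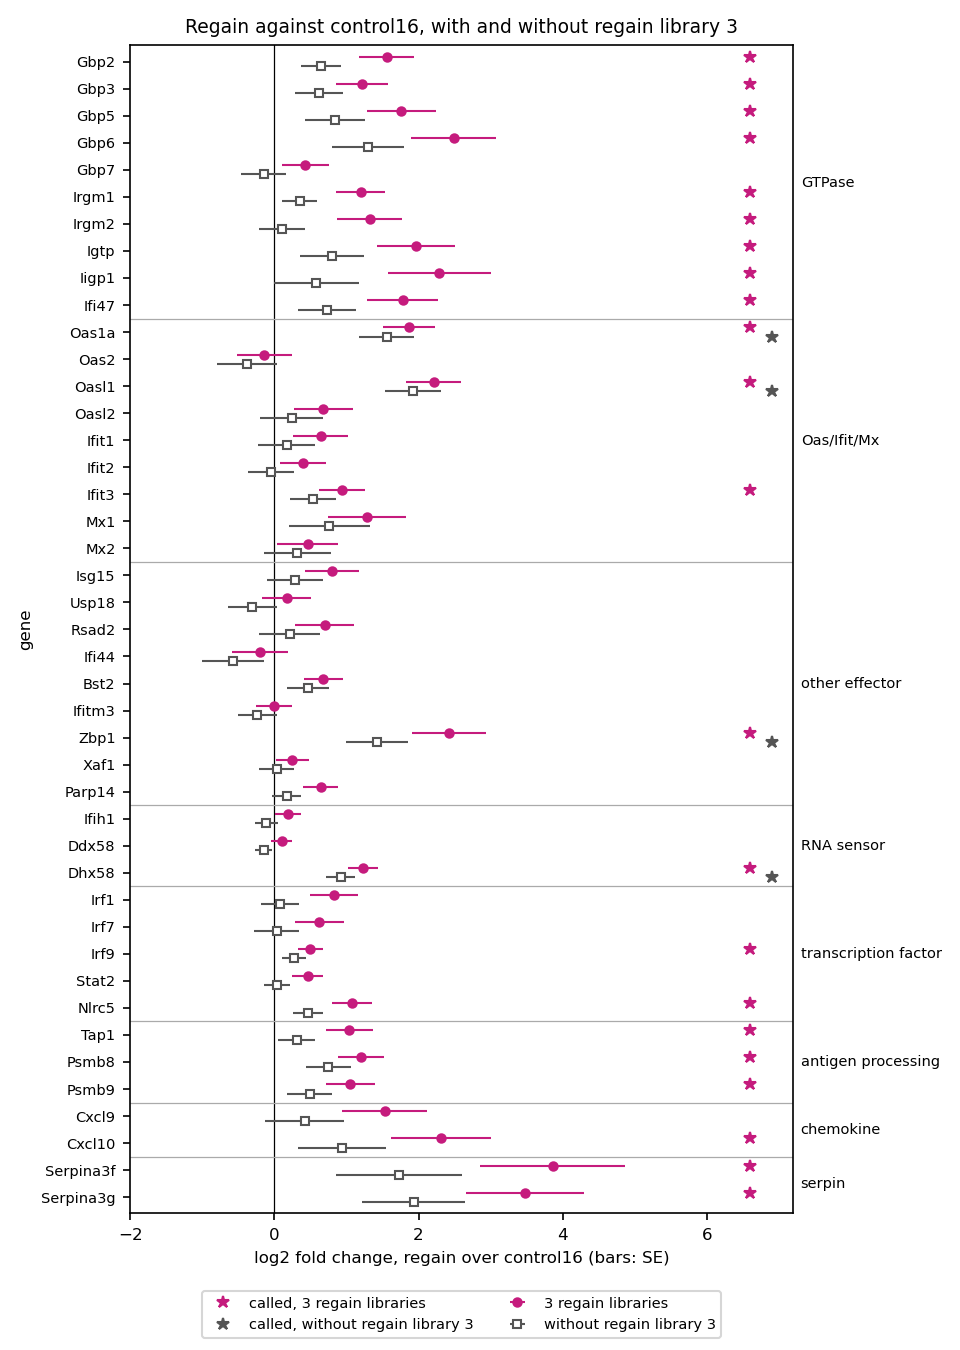
Log2 fold change ± SE of regain over control16 for each of the 43 genes, by role, with all 3 regain libraries (filled) and without regain library 3 (open); stars mark called genes. With all libraries 22 genes are starred, and without library 3 only Oas1a, Oasl1, Zbp1 and Dhx58.

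Without regain library 3, 4 members were called against control16 (Oas1a, Oasl1, Dhx58 and Zbp1), 0 of the 10 GTPases among them, while 12.2% of all genes were called in either direction. The log2 fold change was then 0.65 ± 0.28 for Gbp2 (adjusted p = 0.14), and the median was 0.63 over the GTPases and 0.32 over Oas, Ifit and Mx genes. The number called was 21 without library 1 (16.6% of all genes in either direction) and 29 without library 2 (17.2%). Leaving out control16 library 1, 2 or 3 gave 18, 13 and 11 calls, with 14.1%, 14.2% and 17.2% of all genes called in either direction. A model of the 2 groups alone called 3 members (Oas1a, Oasl1 and Dhx58), and 26.0% of all genes in either direction. Oas1a, Oasl1, Dhx58 and Zbp1 were called in every fit that left out a library of either group.

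Regain and gain4 mice were both in week 4 of high-fat feeding and of the same age, and differed in the earlier cycle. In this comparison 22 members were called higher in regain and 0 lower, against 4.12% of all genes called higher. They comprised 9 GTPases, all but Gbp7, but of Oas, Ifit and Mx genes only Oasl1. The rest were Zbp1, Parp14, Dhx58, Irf1, Irf9, Stat2, Nlrc5, Tap1, both chemokines and both serpins. Regain and gain4 libraries did not overlap in 5 members (Irgm1, Irgm2, Oasl1, Ifih1 and Stat2), against 14.6% of all genes.

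Irgm1, an IRG protein that regulates the others and autophagy, had 54.5, 25.4 and 135 CPM in regain libraries and 21.4, 24.3 and 23.8 CPM in gain4 libraries (log2 fold change 1.63 ± 0.35, adjusted p = 0.0279). Igtp had 76.2, 17.0 and 222 CPM in regain libraries and 13.7, 25 and 12.9 CPM in gain4 libraries (log2 fold change 2.61 ± 0.56, adjusted p = 0.0279). The first was separated between groups by a small margin in regain library 2, and the second overlapped. Iigp1 (log2 fold change 3.36 ± 0.75) and Serpina3f (4.76 ± 1.06) had an adjusted p of 0.029, as did Irgm2 (2.12 ± 0.46), and Gbp5 (2.16 ± 0.49) of 0.0292.

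Gbp2 was called in this comparison (log2 fold change 1.51 ± 0.38, adjusted p = 0.0355), and Oasl2 (0.96 ± 0.42, adjusted p = 0.156) and Ifit3 (0.36 ± 0.32, adjusted p = 0.506) were not. Oas1a had 25.1, 14.0 and 33.5 CPM in regain libraries and 8.70, 9.82 and 14.4 CPM in gain4 libraries, overlapped by a little, and was not called (log2 fold change 1.14 ± 0.36, adjusted p = 0.0599). Regain library 3 was above all 3 gain4 libraries in 41 members (32.2% of all genes), library 1 in 34 (27.3%) and library 2 in 5 (30.0%). The calls depended on single libraries: by edgeR 0 members were called without regain library 3, without gain4 library 1 or without gain4 library 2, and 0 in a model of the 2 groups alone. At an unadjusted p under 0.05 those fits had 19, 26, 31 and 24 members. At the same unadjusted p they had 2723, 3661, 3621 and 3171 of 18374, 18404, 18408 and 16002 genes tested. The numbers of all genes called at the adjusted p were 0, 0, 1 and 0. DESeq2, run only with all libraries, called 24 members, and 12.0% of all genes in either direction.

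Regain and maintenance mice shared the first high-fat period and differed in the diet of the last 4 weeks. Here 32 members were called higher in regain and 0 lower, against 13.9% of all genes called higher. They were 10 of 10 GTPases, 5 of 9 Oas, Ifit and Mx genes (Oas1a, Oasl1, Ifit2, Ifit3 and Mx1), 3 of 9 other effectors (Zbp1, Parp14 and Bst2), 3 of 3 RNA sensors, 4 of 5 transcription factors, and all antigen-processing genes, chemokines and serpins. There was no overlap in 12 members (17.6% of all genes), and in 19 without maintenance library 3 (27.3% of all genes).

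Gbp2 had 185, 73.2 and 472 CPM in regain libraries and 55.0, 51.9 and 73.8 CPM in maintenance libraries, with regain library 2 just under the highest maintenance library (log2 fold change 2.01 ± 0.39, adjusted p = 0.000813). Dhx58 had 19.7, 14.6 and 29.5 CPM in regain libraries and 7.92, 8.38 and 11.3 CPM in maintenance libraries, with no overlap (log2 fold change 1.21 ± 0.21, adjusted p = 0.000348). Parp14 was separated as well, with 106, 76.2 and 197 CPM in regain libraries and 56.5, 58.3 and 38.8 CPM in maintenance libraries (log2 fold change 1.30 ± 0.25, adjusted p = 0.000692). Oasl1 (1.92 ± 0.38, adjusted p = 0.000894), Oas1a (1.84 ± 0.36, adjusted p = 0.00096) and Gbp5 (2.44 ± 0.49, adjusted p = 0.0012) came next.

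Iigp1 was also called against maintenance (log2 fold change 3.09 ± 0.74, adjusted p = 0.00423), as was Ifit3 (0.92 ± 0.32, adjusted p = 0.0379), and Oasl2 was not (0.54 ± 0.41, adjusted p = 0.352). The Ifit3 call was lost without maintenance library 3 (adjusted p = 0.0913). Without maintenance library 3, 25 members were called (27% of all genes in either direction), and without regain library 3, 9 were (15.9%): Gbp2, Gbp5, Gbp6, Oas1a, Oasl1, Parp14, Dhx58, Serpina3f and Serpina3g. In a model of the 2 groups alone Oasl1 was the single member called, with 9.88% of all genes called in either direction. All 3 regain comparisons use the same regain libraries and are not independent of each other.

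After 8 weeks of high-fat diet, 4 members were called higher in gain8 than in control8 and 0 lower, against 12.0% of all genes called higher. They were Oas1a, Oasl1, Dhx58 and Serpina3f, and no GTPase was among them. Oas1a had 11.7, 20.8 and 14.2 CPM in gain8 libraries and 5.06, 4.30 and 3.93 CPM in control8 libraries, with no overlap (log2 fold change 1.81 ± 0.37, adjusted p = 0.00161), and was called in each of the 6 fits that left out a library. Dhx58 had 14.4, 20.2 and 15.6 CPM in gain8 libraries and 9.93, 8.08 and 9.90 CPM in control8 libraries, again separated (log2 fold change 0.85 ± 0.21, adjusted p = 0.00745). Oasl1 had 6.01, 8.67 and 5.87 CPM in gain8 libraries and 4.01, 2.43 and 2.35 CPM in control8 libraries (log2 fold change 1.22 ± 0.37, adjusted p = 0.0224).

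Serpina3f had 1.07, 4.86 and 1.56 CPM in gain8 libraries and 0.339, 0.154 and 0.470 CPM in control8 libraries (log2 fold change 2.95 ± 1.02, adjusted p = 0.0427), and kept its call in 1 of 6 fits that left out a library. Without gain8 library 2, 1 member was called (Oas1a), and 11.6% of all genes in either direction. That library was the highest of its group for many members, with 151 CPM of Gbp2 against 102 and 99.3 CPM in the other gain8 libraries, and 19 CPM of Serpina3g against 3.20 and 3.68 CPM. Its sum of 10 epididymis and sperm markers was also high, at 52.1 CPM against 0.711 and 0.318 CPM in the other gain8 libraries and 21.2 to 25.9 CPM in control8 libraries, and so was its sum of 8 T cell markers, at 42.4 CPM. The part of either in these values was not tested. Gbp2 was not called between gain8 and control8 (log2 fold change 0.75 ± 0.38, adjusted p = 0.161), nor were Iigp1 (-0.38 ± 0.69, adjusted p = 0.723), Oasl2 (0.17 ± 0.41, adjusted p = 0.801) and Ifit3 (0.11 ± 0.32, adjusted p = 0.844). Gain8 libraries lay all above control8 libraries in 10 members, Gbp2 and Gbp6 among them, and in 26.5% of all genes. The deposited Gbp6 had 63.0, 99.1 and 61.5 CPM in gain8 libraries and 34.5, 32.5 and 28.6 CPM in control8 libraries, and was not called. A model of the 2 groups alone called 8 members, and 36.0% of all genes in either direction.

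After 4 weeks back on normal diet, Oas1a, Oasl1 and Dhx58 were called higher in loss than in control12, and 0 members lower, against 11.8% of all genes called higher. Oasl1 had 10.8, 9.10 and 5.76 CPM in loss libraries and 1.82, 1.64 and 1.83 CPM in control12 libraries (log2 fold change 2.28 ± 0.39, adjusted p = 0.000336). Oas1a had 18.6, 11.6 and 12.0 CPM in loss libraries and 4.49, 3.55 and 3.23 CPM in control12 libraries (log2 fold change 1.90 ± 0.37, adjusted p = 0.00112). Neither gene overlapped between the groups, nor did Dhx58, with 12.8, 14.2 and 11.4 CPM in loss libraries against 5.92, 6.26 and 7.09 CPM in control12 libraries (log2 fold change 0.99 ± 0.21, adjusted p = 0.0027). These 3 were called in every fit that left out a library of either group.

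The GTPases did not pass the test in loss, with a smallest adjusted p of 0.486 and a median log2 fold change of -0.05. Gbp2 had 46.2, 72.2 and 80.3 CPM in loss libraries and 65.2, 73.5 and 59.6 CPM in control12 libraries (log2 fold change 0.00 ± 0.38, adjusted p = 0.997), Iigp1 had a log2 fold change of -0.36 ± 0.69 (adjusted p = 0.751), Oasl2 of 0.33 ± 0.42 (adjusted p = 0.606) and Ifit3 of 0.48 ± 0.32 (adjusted p = 0.299). In 10 members all loss libraries lay above control12 (20.0% of all genes), and Irf7 and Cxcl9 lay below it in all of them (17.1% of all genes). Cxcl9 had 9.40, 37.1 and 32.6 CPM in loss libraries and 57.7, 99.7 and 58.3 CPM in control12 libraries, and did not pass the test (log2 fold change -1.45 ± 0.60, adjusted p = 0.0882).

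**Figure D4:**
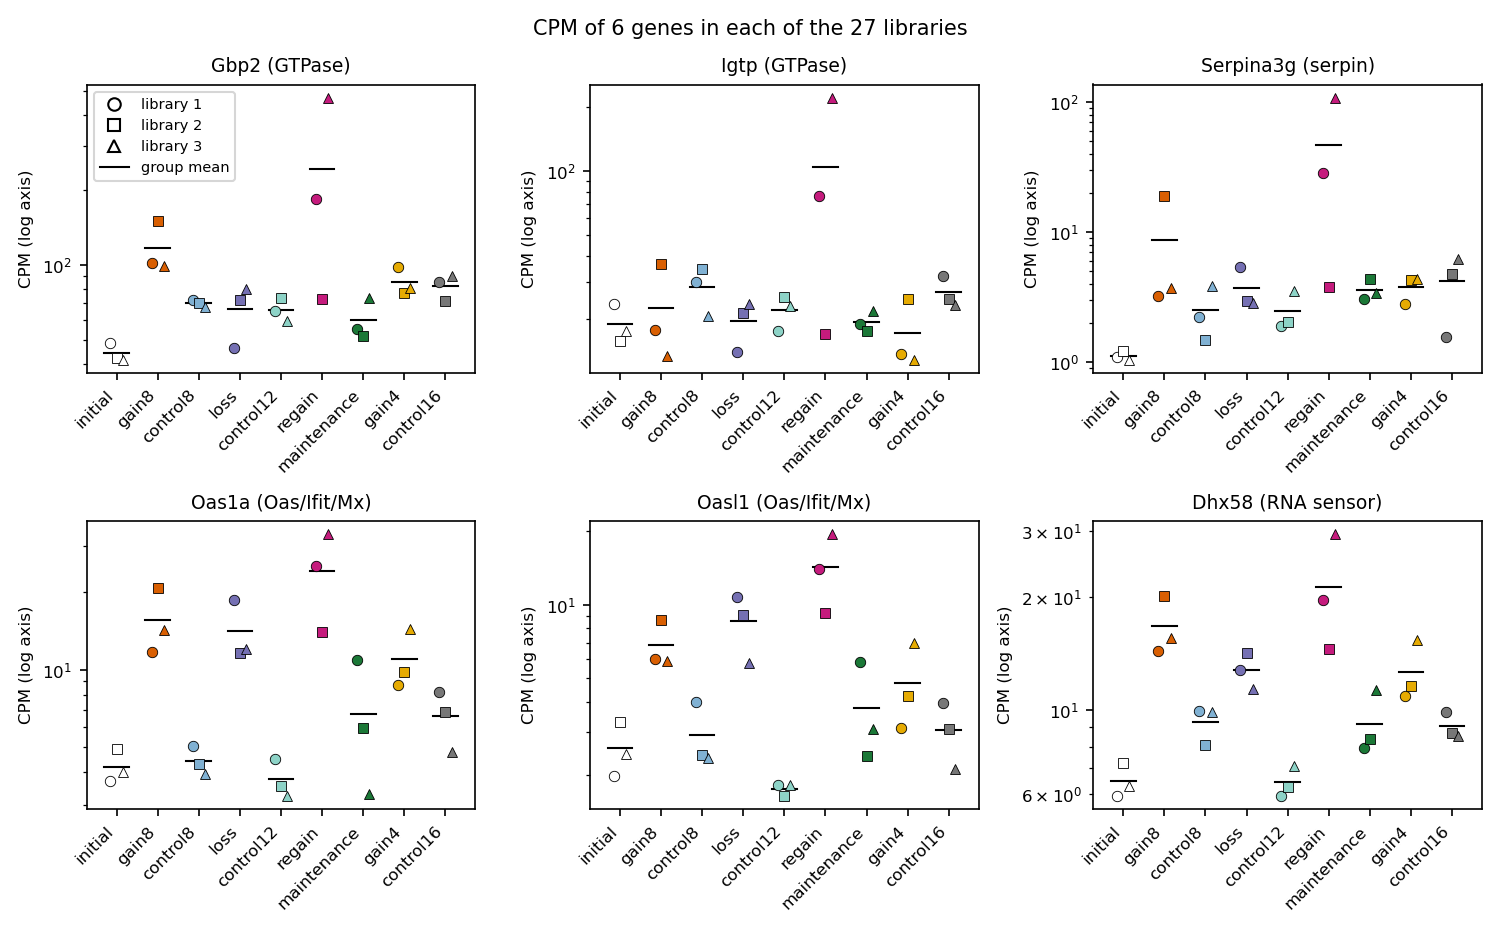
CPM on a log axis of Gbp2, Igtp, Serpina3g, Oas1a, Oasl1 and Dhx58 in each of the 27 libraries, by group; markers are libraries and bars are group means. In the lower row gain8, loss and regain libraries stand above those of their controls, and in the upper row regain libraries 1 and 3 stand apart while regain library 2, with 73.2 CPM of Gbp2, lies near the controls.

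In maintenance against control16 edgeR called 0 members, 5 had an unadjusted p under 0.05, and DESeq2 called 0. Of all genes 0% were called, with 3633 at an unadjusted p under 0.05 and 824 called by DESeq2. Oas1a had 10.9, 5.96 and 3.31 CPM in maintenance libraries and 8.20, 6.86 and 4.80 CPM in control16 libraries, with overlap. Gbp2 (log2 fold change -0.45 ± 0.38, adjusted p = 0.522), Iigp1 (-0.80 ± 0.69, adjusted p = 0.536), Oasl2 (0.14 ± 0.41, adjusted p = 0.873) and Ifit3 (0.02 ± 0.32, adjusted p = 0.979) did not pass. Maintenance libraries lay all below control16 libraries in 9 members (Gbp5, Igtp, Ifit2, Parp14, Ddx58, Irf1, Stat2, Tap1 and Cxcl9), and in 7.55% of all genes, and all above in 0 members (8.10% of all genes). Without maintenance library 3, edgeR called 0 members and 0 genes, with 2 members (Gbp7 and Ifi44) and 2424 genes at an unadjusted p under 0.05. The remaining maintenance libraries lay below control16 in 17 members (15% of all genes), 8 of them GTPases, and above it in 0 (15.8% of all genes). Without that library the log2 fold change was -0.58 for Gbp2, -1.34 for Iigp1, 0.58 for Oasl2 and 0.08 for Ifit3.

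In gain4 against control16, with 5.82% of all genes called, edgeR called 0 members, and 1 (Dhx58) had an unadjusted p under 0.05. Of all 17821 genes, 4373 had such an unadjusted p. DESeq2 called 0 members and 11.8% of all genes. Oas1a had 8.70, 9.82 and 14.4 CPM in gain4 libraries and 8.20, 6.86 and 4.80 CPM in control16 libraries. Oas1a, Ifit3 and Dhx58 were above control16 in all gain4 libraries (14.1% of all genes), and Irgm1, Irgm2, Iigp1 and Cxcl9 were below it in all of them (11.3% of all genes). Gbp2 (log2 fold change 0.05 ± 0.38, adjusted p = 0.951), Iigp1 (-1.07 ± 0.69, adjusted p = 0.354), Oasl2 (-0.28 ± 0.41, adjusted p = 0.716) and Ifit3 (0.58 ± 0.32, adjusted p = 0.267) did not pass.

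Between 13 and 5 weeks of age on normal diet, control8 against initial, edgeR called 0 members (0.724% of all genes were called). Of the members 5 had an unadjusted p under 0.05, as did 2766 of all 17821 genes. DESeq2 called 0 members (3.78% of all genes). Control8 libraries were all above initial libraries in 14 members (19.4% of all genes), among them Gbp2, Gbp3, Gbp5, Gbp6, Cxcl9, Cxcl10 and both serpins, and in 0 members all below (19.1% of all genes). Gbp2 had 72.1, 70.5 and 68.0 CPM in control8 libraries and 48.5, 42.2 and 41.5 CPM in initial libraries (log2 fold change 0.67 ± 0.38, adjusted p = 0.407). Iigp1 (0.81 ± 0.69, adjusted p = 0.608), Oasl2 (0.33 ± 0.42, adjusted p = 0.742) and Ifit3 (0.95 ± 0.32, adjusted p = 0.157) did not pass. A model of these 2 groups alone called 9 members, and 12.9% of all genes in either direction.

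Whether the effects differed between stages was tested as a difference of differences. For the loss effect over control12 less the gain8 effect over control8, edgeR called 0 members and 0% of all genes (1231 genes had an unadjusted p under 0.05, and DESeq2 called 32). Of the members 0 had an unadjusted p under 0.05, DESeq2 called 0, and the smallest adjusted p was 0.742. For the regain effect over control16 less the gain8 effect over control8, edgeR called 0 members and 0% of all genes (1126 genes had an unadjusted p under 0.05, and DESeq2 called 53), and DESeq2 called 0 members. At an unadjusted p under 0.05 there were 10 members, 8 of them GTPases, beside Nlrc5 and Cxcl9. Igtp had the smallest adjusted p, with a difference of 2.31 ± 0.75 on the log2 scale (adjusted p = 0.687). With regain library 3 left out, 1 member remained under that unadjusted p, beside 818 of all 18374 genes tested.

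T cell and NK marker sums were highest in library 3 and lowest in library 2 of the regain group. The summed CPM of 8 T cell markers was 35.3, 11.7 and 86.6 in regain libraries 1, 2 and 3, against 13.4, 17.6 and 27.2 in control16 libraries. That of 8 NK and cytotoxic markers was 30.2, 12.1 and 55.0 in regain libraries and 13.6, 16.2 and 17.6 in control16 libraries. This is the order of the regain libraries seen in 41 of the 43 members, with all 10 GTPases and all 9 Oas, Ifit and Mx genes among them, and in 11.1% of all genes. Other immune marker sums had other orders. In regain libraries 1, 2 and 3 they were 8847, 4540 and 6878 CPM for macrophages and 27.3, 8.57 and 17.5 CPM for B cells. Neutrophil sums were 56.6, 19.2 and 27.3 CPM, and dendritic cell sums 31.0, 35.4 and 52.4 CPM. Gain8 library 2 had 42.4 CPM of T cell markers against 8.48 to 11.8 CPM in the other gain8 and the control8 libraries. It was the highest of its group in the GTPase mean, and also in the Oas, Ifit and Mx mean (3.85 against 3.32 and 3.33). The match was not complete: maintenance library 2 had 28.3 CPM of T cell markers with a GTPase mean of 4.31, and control16 library 3 had 27.2 CPM with a mean of 4.82. The NK and cytotoxic sum was 14.2 to 20.9 CPM in loss against 7.45 to 10.7 CPM in control12, with Gzmb and Ncr1 called higher. In gain8 it was 16.1 to 37.2 CPM against 11.8 to 14.5 CPM in control8, with Nkg7 and Eomes called higher. The T cell marker Cd8a was also called higher in gain8, and 0 of the 10 GTPases were called in loss or gain8. Of the T cell markers 0 of 8 were called by edgeR between regain and control16, and of the NK and cytotoxic markers 1 of 8 (Gzmb, called higher). Against gain4 libraries, whose T cell sums were 7.92, 11.6 and 9.28 CPM, 4 of the 8 T cell markers (Cd4, Cd8a, Cd5 and Lck) and 2 of the 8 NK and cytotoxic markers were called higher in regain. Against maintenance, 1 T cell marker (Cd4) and 2 NK and cytotoxic markers were. The part of these cells in the result was not tested.

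Interferon gamma transcripts were few. Ifng had 11, 0 and 50 reads in regain libraries 1, 2 and 3 and 3, 5 and 9 reads in control16 libraries, and 13 reads in gain8 library 2 against 1 to 4 in the other gain8 and the control8 libraries. The regain order is that of 41 of the 43 members, with all 10 GTPases and all 9 Oas, Ifit and Mx genes among them, and of 11.1% of all genes. In control16 libraries 1, 2 and 3 the GTPase mean ran the other way from Ifng, at 5.26, 4.98 and 4.82. Ifng was not called between regain and control16 (log2 fold change 1.69 ± 1.12, adjusted p = 0.293). Of the listed type I and type III interferon genes (Ifnb1, Ifna2, Ifna4, Ifnl2 and Ifnl3), every library had at most 1 read of any single gene. At this depth the transcripts of each were not detectable beyond single reads.

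**Figure D5:**
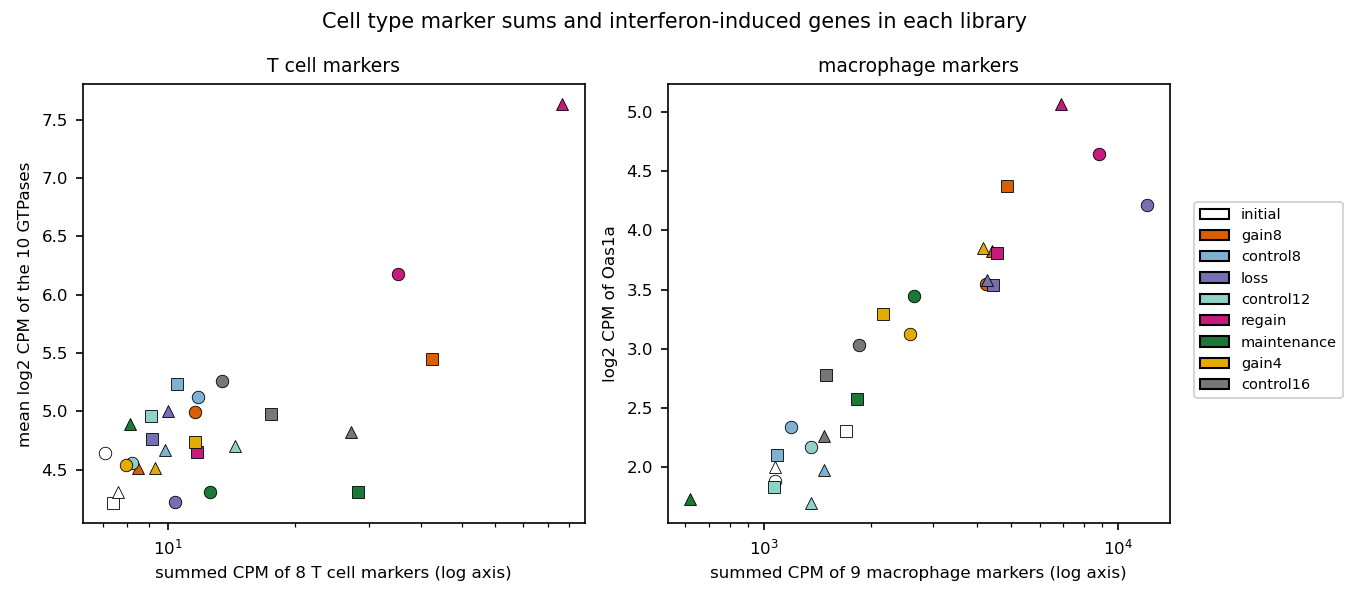
Left, the mean log2 CPM of the 10 GTPases against the summed CPM of 8 T cell markers, and right, log2 CPM of Oas1a against the summed CPM of 9 macrophage markers, in each of the 27 libraries (marker shapes are library numbers, marker sums on log axes). Regain library 3, at 86.6 CPM of T cell markers, is at the upper right of the left panel. On the right the gain8, loss and regain libraries lie toward the high end of both axes. Oas1a is a gene picked for its calls in these groups. Gain4 library 3 lies near them, at 4155 CPM of macrophage markers and 14.4 CPM of Oas1a.

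Oas1a, Oasl1 and Dhx58, the members called in gain8, loss and regain alike, were high in libraries with high macrophage markers. The summed CPM of 9 macrophage markers was 4540 to 8847 in regain libraries against 1476 to 1855 in control16, 4239 to 4871 in gain8 against 1092 to 1475 in control8, and 4259 to 12079 in loss against 1070 to 1362 in control12. In each of these comparisons 8 of the 9 markers were called higher. The 3 genes were picked for their calls in the same comparisons. The match between these groups therefore follows from that choice and cannot show a source. In maintenance libraries, where these 3 genes did not pass the test, the sum was 620 to 2650, and in gain4 libraries, where they did not pass either, it was 2162 to 4155, with 3 of 9 markers called higher. Loss library 1 had the highest macrophage sum, 12079, but the highest Oas1a level was that of regain library 3. The adipocyte sum was lower in regain, at 15870 to 25203, than in control16, at 32445 to 43948, with 3 of 8 markers (Cidec, Cfd and Pnpla2) called lower.

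Sums of other markers differed between groups as well. A sum of 6 nuclear and mitochondrial transcripts kept as signs of RNA quality was 15294 to 19796 CPM in regain and 30605 to 35827 CPM in control16, with 4 of 6 (Neat1, mt-Nd4, mt-Co1 and mt-Cytb) called lower. It was 13178 to 19817 CPM in gain8 against 24332 to 28139 CPM in control8, and 15328 to 19451 CPM in loss against 23984 to 45434 CPM in control12. The liver marker sum, mainly Cyp2e1, was 97.8 to 298 CPM in regain against 2380 to 3761 CPM in control16, 92.5 to 371 CPM in gain8 against 2868 to 5257 CPM in control8, and 40.7 to 255 CPM in loss against 2184 to 3373 CPM in control12. It was 427 to 1170 CPM in gain4. In the 3 comparisons of regain, gain8 and loss with their controls, Cyp2e1 was the single liver marker called lower.

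The sum of 5 neutrophil markers was 19.2 to 56.6 CPM in regain and 28.7 to 72.1 CPM in gain4, against 9.1 to 20.6 CPM in control16. It was 29.6 to 65.2 CPM in gain8 against 7.06 to 10.4 CPM in control8, where S100a8 and Csf3r were called higher, and 9.23 to 17.1 CPM in loss against 6.34 to 11.4 CPM in control12. The gain8 and gain4 sums did not overlap those of their controls, and the regain and loss sums did. The sum of 5 mesothelium markers was 7.47 to 63.3 CPM in regain against 111 to 220 CPM in control16, and overlapped in gain8 (17.9 to 57.7 against 46.1 to 287 CPM in control8) and in loss (6.6 to 52.9 against 14.6 to 120 CPM in control12). The sum of 5 red cell markers was 642 to 1212 CPM in regain against 1301 to 2186 CPM in control16, 507 to 1019 CPM in gain8 against 1275 to 1550 CPM in control8, and 176 to 561 CPM in loss against 1124 to 2091 CPM in control12. The part of macrophages, neutrophils, adipocytes, RNA quality and these other tissues in the results was not tested.

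The wider interferon pathway was read from a list of 78 other genes, of which 69 passed the filter. In regain against control16, 29 were called higher and 2 lower, with a median log2 fold change of 0.58 against -0.015 over all genes, of which 12.5% were called higher. Without regain library 3, 12 were called higher and 1 lower, with 12.2% of all genes called in either direction. There were 18 higher and 0 lower in gain8 against control8 (12.0% of all genes called higher), and 15 higher and 1 lower in loss against control12 (11.8% of all genes called higher). In gain4 against control16, 3 were called higher and 1 lower, with a median of 0.06 (5.82% of all genes called in either direction). In maintenance against control16 edgeR called 0, with a median of -0.18 (0% of all genes called). The list was chosen with results of these data known. Batf2, an interferon-gamma-induced factor of macrophages, had 5.62, 2.68 and 15.8 CPM in regain libraries and 1.69, 2.05 and 1.89 CPM in control16 libraries (log2 fold change 2.10 ± 0.50, adjusted p = 0.00509). Regain library 2 exceeded the controls by a small margin.

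Irf8, a factor of macrophages and dendritic cells, was called higher in regain (log2 fold change 2.25 ± 0.29, adjusted p = 4.1e-05), gain8 (1.83 ± 0.29, adjusted p = 0.000304) and loss (1.30 ± 0.29, adjusted p = 0.00309), each against its own controls. The receptor subunit Ifngr1 was called lower in regain, with 230, 198 and 219 CPM in regain libraries against 460, 355 and 338 CPM in control16 libraries (log2 fold change -0.83 ± 0.25, adjusted p = 0.022). Irf4 was the other gene called lower (log2 fold change -2.52 ± 0.61, adjusted p = 0.0057). Against gain4, 17 pathway genes were called higher in regain and 0 lower, with 4.12% of all genes called higher. Without regain library 3, 0 of all genes were called in that comparison. Against maintenance, 42 pathway genes were called higher and 1 lower, with 13.9% of all genes called higher.

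Several members sit together in the genome, in GRCm38 coordinates. Gbp2 (chr3:142620602-142638008), Gbp3 (chr3:142560026-142573209), Gbp7 (chr3:142530342-142550149) and the deposited Gbp5 (chr3:142594847-142619179) lie side by side, and Igtp (chr11:58199556-58207591) and Irgm2 (chr11:58199618-58222782) have overlapping exons on the same strand. Oas1a is at chr5:120896256-120907521, Ifit1 at chr19:34640871-34650009, and Serpina3f and Serpina3g at chr12:104214544-104221129 and chr12:104236245-104241939. Exons of 18 of the 43 members overlap another gene, in 12 cases on the opposite strand, and reads from such pairs may not be separated. Neighbouring members therefore do not count as independent observations.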

How the data were processed

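RNA was sequenced in 27 libraries prepared with a TruSeq RNA kit. Per the submitters' processing notes, Trimmomatic 0.33, TopHat2 2.0.13 and HTSeq 0.6.0 were used for trimming, alignment and counting, on the mouse build mm10 (GRCm38); annotation and strand setting are not given in the sources used here. The authors deposited raw counts per gene (43616 rows; 156 rows with a repeated name hold identical values, and each name was used once) and FPKM (22194 rows). In the deposited FPKM, 99.88% of values of 12046 names lie within 0.1% of count over exonic length over the protein-coding sum.

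Names were filtered with filterByExpr (minimum count 10, total 15), scaled by TMM (factors 0.814 for maintenance library 3 to 1.11 for loss library 3) and fitted in 1 model of 9 group means with edgeR 4.0.16 in R 4.3.3, and p-values were adjusted by Benjamini-Hochberg over 17821 names. For family means, log2 CPM was computed after adding a prior count of 2. As alternatives, DESeq2 1.42.0 was run beside RLE scaling, no filter, only the compared groups, a replicate block, a term for libraries over 1000 CPM of Lars2, leaving out libraries, and limma 3.58.1 on log2(FPKM + 1) and log2(FPKM + 0.1). The code was tested on simulated data. Replicates of a group differed beyond counting noise (chi-square per degree of freedom 11.4 to 508). Where a library is left out, the spread is pooled over all groups.

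The members, lists and tests were chosen with earlier results of these data known. Named with values are the 2 members of each role with the highest mean CPM, in each comparison the called members with the smallest adjusted p (up to 6) and Gbp2, Iigp1, Oasl2 and Ifit3; other members were chosen after their values were seen. Deposited Gbp5 and Gbp6 were not matched to promoter windows.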

Additional observations from a re-analysis of the deposited data

Results flagged for a closer look

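Parp14 lay above its controls in loss and below them in maintenance. Its 3 loss libraries, at 80.9, 88.5 and 91.7 CPM, were all above the control12 libraries, at 61.0, 77.3 and 68.5 CPM, with a log2 fold change of 0.34. Its 3 maintenance libraries, at 56.5, 58.3 and 38.8 CPM, were all below the control16 libraries, at 92.7, 86.9 and 64.5 CPM, with a log2 fold change of -0.67. Neither difference was called by edgeR (adjusted p = 0.343 and 0.141), and the difference between them was not tested. Maintenance library 3, where 11 liver markers other than Cyp2e1 summed to 7862 CPM against at most 129 CPM elsewhere, was the lowest of these 12. Without it the second log2 fold change was -0.46 (adjusted p = 0.425 by edgeR).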

How the results depend on the processing

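With each library left out in turn, the number of members called ran from 4 to 29 for regain against control16, from 0 to 27 against gain4, from 9 to 36 against maintenance, from 1 to 4 for gain8 and stayed at 3 for loss. The numbers of all genes called in either direction moved as well, with 18138 to 18417 genes tested. They ran from 2248 to 3173, 0 to 2340, 2928 to 4961, 2129 to 3289 and 1185 to 4406 in these comparisons. A model of the compared groups only called 3 members (regain against control16), 0 (against gain4), 1 (against maintenance), 8 (gain8) and 9 (control8 against initial). Of all genes it called 26.0%, 0%, 9.88%, 36.0% and 12.9% in either direction, against 21.7%, 5.49%, 26.9%, 21.5% and 0.724% in the main model. The spread then comes from the compared groups alone, and its part in these counts was not tested. For regain against control16, limma called 13 on log2(FPKM + 1), 12 on log2(FPKM + 0.1) and 10 on log2(FPKM + 1) with no filter. Of all genes it called 3328 of 15125, 3295 of 15125 and 3222 of 19283. For regain against gain4, no filter on counts gave 13, with 239 of 30052 genes called, against 978 of 17821 in the main model. Limma with no filter gave 11, with 1192 of 19283 genes called. The cause was not tested. The replicate block gave 19, 16 and 31 calls for the 3 regain comparisons against 22, 22 and 32. Of all 17821 genes it called 3772, 606 and 4481, against 3864, 978 and 4790 in the main model. No pairing was used, since like-numbered libraries deviated together with correlations between -0.181 and 0.378. Of 8 comparisons, 0 had every correlation over 0.1. Counts under RLE scaling, DESeq2, the Lars2 term and without maintenance 3, loss 1 and control12 3 stayed within 1.5 times. The family difference for regain against control16 ran from -0.11 to 0.67 over left-out libraries, and that for maintenance from -0.68 to 0.19. Over 83 called results of single genes and 1328 alternatives, 1001 kept the call and 327 lost it with the same direction.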
